A study of Homo sapiens with 9 samples.

Results

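The genes described here encode the machinery of DNA replication and of mitosis. There are 36 of them among the 56312 entries of the deposited count table. Of these members, 18 were listed as acting at or before S phase and 18 as mitotic, though some may act in more phases. The members were taken by gene symbol from a list of 37 names, and the name FOXM1_none matched no entry. RNA was sequenced from HNES1, a line of human naive pluripotent stem cells of wild-type genotype, on day 5 of its transition towards a primed-like state. The group PROTAC received UNC6852 at 2.5 µM, which degrades EED, and the group UNC received UNC1999 at 1 µM, which inhibits the catalytic subunits EZH1 and EZH2. EED, EZH1 and EZH2 belong to Polycomb repressive complex 2 (PRC2), which places the repressive mark H3K27me3 on chromatin. The third group, DMSO, received the same volume of vehicle. Every group started from PXGL medium on Geltrex, got its compound or vehicle 24 h before PXGL was withdrawn, and was then kept in N2B27 medium with the tankyrase inhibitor XAV939 and fresh compound each day. Each group has 3 libraries, all from 1 cell line whose stocks are grown on mouse feeder cells. According to the design text, 3 independent experiments were performed. Libraries are named below by group and by the replicate number in their titles; whether libraries that share a number came from one experiment is not stated in the labels.

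A dividing cell licenses its replication origins in G1, when ORC, CDC6 and CDT1 load the MCM2-7 helicase onto DNA. Cyclin E and CDK2 help to release E2F factors, which switch on genes for helicase loading, DNA polymerases and nucleotide synthesis. Genes for mitosis are switched on later, in G2, largely through promoter elements called CHR and CCAAT boxes that are read by MuvB complexes with B-MYB and FOXM1 and by NF-Y. Pluripotent cells are known for a short G1 phase and fast division.

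Levels below are in CPM, counts relative to the scaled library total. Library totals ran from 31651742 to 101081643 counts, and mitochondrial transcripts took 3.21% to 5.12% of them. All 36 members passed the filter on low counts and were tested with the other genes. The 7 markers of pluripotency were all present, with a summed level of 5933 to 6598 CPM in PROTAC, 6076 to 6544 CPM in UNC and 5765 to 6122 CPM in DMSO. Trophoblast markers summed to 14.9 to 42.6 CPM in PROTAC, 9.99 to 26.0 CPM in UNC and 18.2 to 44.2 CPM in DMSO, with 2 of 7 below 1 CPM in every library. Mesoderm markers summed to 3.93 to 8.07 CPM in PROTAC, 2.96 to 4.64 CPM in UNC and 6.88 to 10.1 CPM in DMSO, with 2 of 5 below 1 CPM throughout, and endoderm markers to at most 8.63 CPM in any library. Fibroblast markers summed to 232 to 255 CPM in PROTAC, 159 to 208 CPM in UNC and 233 to 286 CPM in DMSO, with 4 of 7 below 1 CPM throughout and 1 at 0. The mesoderm and fibroblast sums of UNC lay below every DMSO sum, while the trophoblast sums overlapped. In a fit with the replicate number as a block (edgeR, false discovery rate 0.05), UNC against DMSO had 4 of 7 trophoblast markers lower, with a median log2 fold change of -1.08 over the 7, and 2 mesoderm and 3 fibroblast markers lower of 3 tested in each list. Of the primed markers 2 of 7 were lower (median -0.26), of the pluripotency markers 2 of 7 were higher and of the naive markers 1 of 7 was higher. PROTAC against DMSO had 0 of 7 trophoblast and 0 of 3 mesoderm markers called, 1 of 3 fibroblast and 1 of 7 primed markers lower, and 1 of 7 pluripotency and 2 of 7 naive markers higher. The fit with the block called 13.5% of all genes tested for UNC against DMSO and 3.02% for PROTAC against DMSO. By group alone, UNC had 1 marker lower in each of the trophoblast, mesoderm, fibroblast and primed lists. No pluripotency or naive marker was called by group alone, and PROTAC against DMSO had no marker called. Of all genes, 0.72% were called by group alone for UNC and 0% for PROTAC. The part of these cell types and states in the results below was not tested. In bulk RNA, fewer dividing cells and less of a transcript per cell cannot be told apart.

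The promoters of the members differ in the letters of known elements between the S-phase and the mitotic list. RefSeq promoters of GRCh38.p14, from 250 bases before to 50 bases after each gene's start, were found for 30 of the 36 members. MCM4, MCM5, CCNE2, AURKA, TTK and BIRC5 had no entry. A gene was counted when any of its windows held the letters on either strand. The E2F letters searched were TTCCCGC, besides these the run TTCGCGC, a further form TTGCCGC and lastly the form TTGGCGC, and matches can overlap each other on opposite strands. They occurred in 13 of 15 S-phase members (86.7%) and 3 of 15 mitotic members (20%: CCNB1, CDK1 and CENPA), against 15.3% of the 27305 genes in the table. The CHR letters, which were TTTGAA or else the form TTCGAA, occurred in 11 of 15 mitotic members (73.3%) and 2 of 15 S-phase members (13.3%: MCM6 and RRM1), against 19.5% of all genes. CCAAT occurred in 14 of 15 mitotic members (93.3%), 11 of 15 S-phase members (73.3%) and 39.7% of all genes. CHR and CCAAT letters stood together in 10 mitotic members (66.7%), 2 S-phase members (13.3%) and 7.85% of all genes. These are matches of letters, not measured sites.

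Shown first are the promoters of the S-phase members MCM6, CDT1 and POLA1. MCM6 and CDT1 were called higher in UNC in the fit with the replicate number as a block, but not by group alone. POLA1 varied most between replicate numbers among the S-phase members called by number. MCM6 lies at chr2:135876394-135876693, minus strand, CDT1 at chr16:88803539-88803838, plus strand and POLA1 at chrX:24693668-24693967, plus strand. Each sequence runs 5′ to 3′ along the gene's strand, with capitals marking the E2F, CHR and CCAAT letters.
MCM6: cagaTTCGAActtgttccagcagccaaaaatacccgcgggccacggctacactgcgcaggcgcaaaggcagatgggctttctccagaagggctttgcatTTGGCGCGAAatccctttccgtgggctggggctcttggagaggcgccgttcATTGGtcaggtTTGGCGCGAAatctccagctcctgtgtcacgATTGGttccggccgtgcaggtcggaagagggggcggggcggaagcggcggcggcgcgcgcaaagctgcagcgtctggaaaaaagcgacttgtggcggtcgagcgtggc
CDT1: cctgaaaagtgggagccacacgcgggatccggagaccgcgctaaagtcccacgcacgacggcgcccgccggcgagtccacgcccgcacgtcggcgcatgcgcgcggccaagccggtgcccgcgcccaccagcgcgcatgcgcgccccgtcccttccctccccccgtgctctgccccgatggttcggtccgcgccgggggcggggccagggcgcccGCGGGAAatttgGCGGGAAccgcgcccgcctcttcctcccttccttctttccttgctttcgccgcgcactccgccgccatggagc
POLA1: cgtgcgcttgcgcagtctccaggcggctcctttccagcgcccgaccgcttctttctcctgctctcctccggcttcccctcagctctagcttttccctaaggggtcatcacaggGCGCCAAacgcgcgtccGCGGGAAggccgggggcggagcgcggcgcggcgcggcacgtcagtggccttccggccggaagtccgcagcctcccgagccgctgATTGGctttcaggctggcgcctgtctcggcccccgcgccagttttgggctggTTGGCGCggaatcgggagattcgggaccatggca
The MCM6 window held overlapping E2F matches at 2 places as well as a CHR and 2 CCAAT matches, the CDT1 window held E2F matches alone, and the POLA1 window held 3 E2F matches and 1 CCAAT match.

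The mitotic promoters shown are those of CDK1, BUB1 and TOP2A. CDK1 and BUB1 were called higher in UNC in the fit with the replicate number as a block, but not by group alone. TOP2A had the second widest range between replicate numbers among the members called by number. CDK1 has several windows in the table, and the one shown lies at chr10:60778228-60778527, plus strand. BUB1 lies at chr2:110678014-110678313, minus strand and TOP2A at chr17:40417847-40418146, minus strand. Capitals mark the same letters.
CDK1: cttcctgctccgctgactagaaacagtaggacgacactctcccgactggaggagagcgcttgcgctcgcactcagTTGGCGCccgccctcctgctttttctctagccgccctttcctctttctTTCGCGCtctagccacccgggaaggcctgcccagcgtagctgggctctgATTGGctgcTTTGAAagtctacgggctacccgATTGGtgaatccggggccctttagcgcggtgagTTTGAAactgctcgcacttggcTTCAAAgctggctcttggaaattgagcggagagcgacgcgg
BUB1: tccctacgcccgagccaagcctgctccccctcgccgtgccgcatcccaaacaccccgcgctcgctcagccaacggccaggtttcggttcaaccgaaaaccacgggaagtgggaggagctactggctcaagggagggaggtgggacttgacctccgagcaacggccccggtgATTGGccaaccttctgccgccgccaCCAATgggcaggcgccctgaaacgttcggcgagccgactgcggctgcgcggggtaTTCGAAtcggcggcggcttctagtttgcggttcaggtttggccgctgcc
TOP2A: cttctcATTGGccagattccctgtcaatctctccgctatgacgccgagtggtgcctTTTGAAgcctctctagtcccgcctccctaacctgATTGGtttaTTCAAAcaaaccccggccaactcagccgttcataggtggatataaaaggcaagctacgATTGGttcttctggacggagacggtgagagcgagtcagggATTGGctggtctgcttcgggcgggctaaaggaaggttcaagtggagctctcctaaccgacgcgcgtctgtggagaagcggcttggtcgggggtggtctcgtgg
All 3 windows held CHR and CCAAT letters. TOP2A had 4 CCAAT matches, spread from 53 to 244 bases before the start, and the CDK1 window also held 2 E2F matches.

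The members were well expressed except CCNE2. Per kilobase of exon, the highest DMSO means were those of PCNA, the sliding clamp of DNA polymerases, at 109 CPM per kb, and of TOP2A, the topoisomerase that untangles sister chromatids, at 105 CPM per kb. CCNB1, the cyclin that drives entry into mitosis, reached 72.8 CPM per kb, and CDC20, which activates the anaphase-promoting complex, 68.1 CPM per kb. At the other end stood MCM10, a helicase activator, at 6.62 CPM per kb, and CCNE2, the second cyclin E, at 0.681 CPM per kb, while its paralogue CCNE1 had 14.1 CPM per kb. Reads of overlapping genes limit some of these levels, since the strand setting of the counting is not given in the sources used here. INTS8, on the other strand, had 1962% of the counts of CCNE2, and GSE1 had 595% of those of GINS2. SLC35F6, which overlaps CENPA on the same strand, had 150% of its counts. The other overlaps above 10% were CDC23 with KIF20A (58.1%), ENOSF1 with TYMS (41.0%), TPRA1 with MCM2 (26.8%), EXOSC9 with CCNA2 (24.4%) and PAK6 with BUB1B (13.7%).

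**Figure D1:**
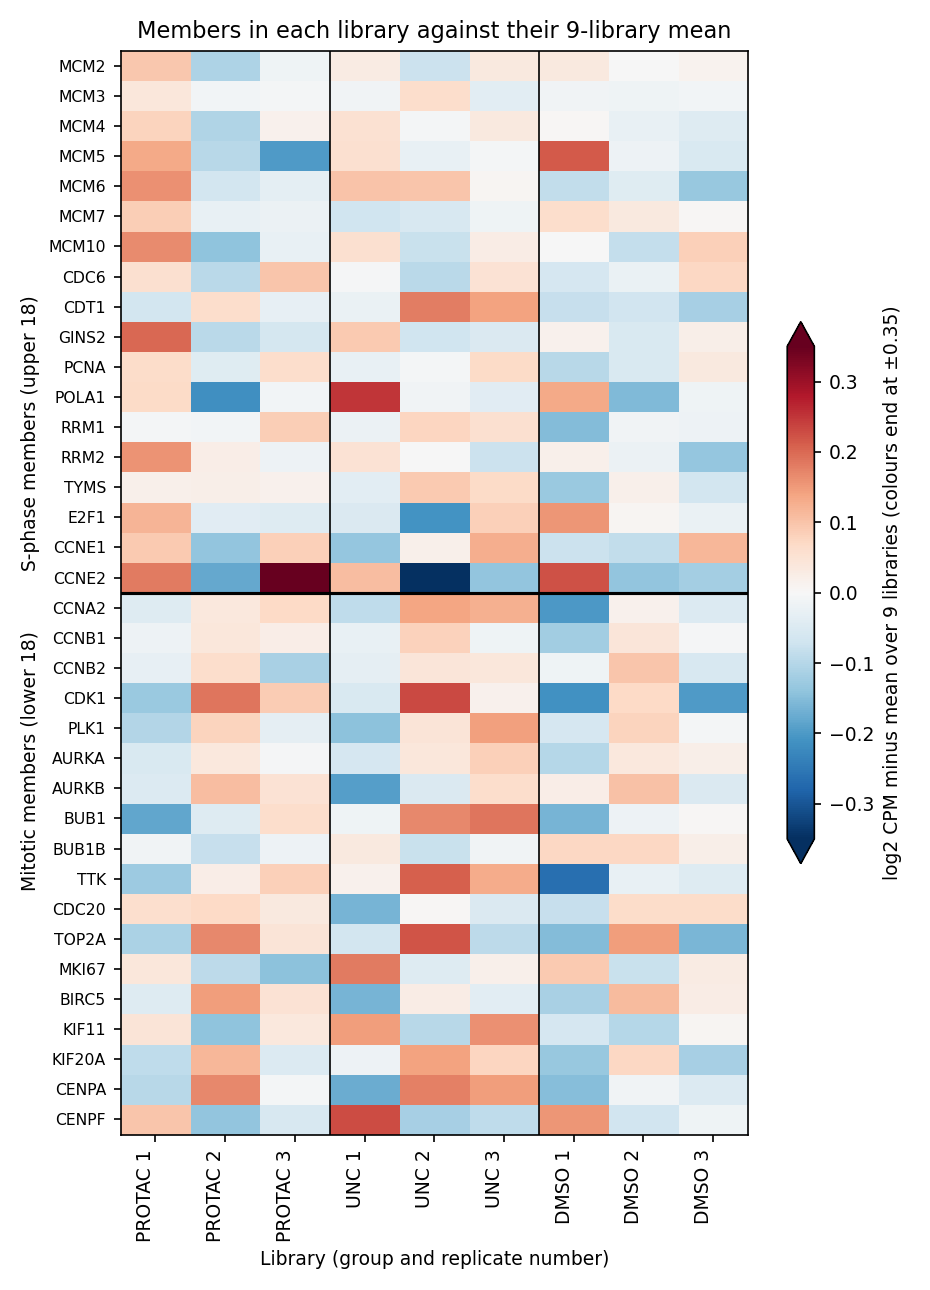
Each row is a member and each column a library, and the colour gives the log2 CPM of that library minus the member's mean over the 9 libraries. Many mitotic rows are blue in the libraries of number 1 in all 3 groups: 13 of the 18 have their lowest mean there, and 11 of the 18 S-phase rows have their highest.

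Members were first compared between UNC and DMSO. No member was called in the fit by group alone, in which 0.72% of all 24182 genes tested were called, and 2 members, CDT1 and TTK, had an unadjusted p under 0.05. DESeq2 and limma-voom without a block also called 0 members in this comparison and in those below. The tests are edgeR's quasi-likelihood tests with a false discovery rate of 0.05 over all genes tested, and every adjusted p below comes from them. The fit with the replicate number as a block, called the paired fit, made 5 calls among the 36 members (13.9%), all higher in UNC. The share over all genes in the paired fit was 13.5% (7.05% higher and 6.46% lower), and 19.3% over the 13584 genes within the members' range of expression, so the members' share lies near or below the background. The 5 were TTK, CDT1, CDK1, BUB1 and MCM6, and 9 members had an unadjusted p under 0.05.

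TTK, a kinase of the spindle checkpoint, had 47.9, 54.9 and 51.9 CPM in UNC 1 to 3 and 39.5, 46.6 and 45.9 CPM in DMSO 1 to 3. The UNC libraries all lay above the DMSO libraries. Its mean was 51.6 ± 3.48 CPM in UNC and 44.0 ± 3.93 CPM in DMSO (SD, n = 3 each), a log2 fold change of 0.23 ± 0.056 in the paired fit (SE, as for all fold changes below, adjusted p = 0.0038). By group alone the adjusted p was 0.298.

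CDT1, the loading factor of the helicase, had 176, 202 and 197 CPM in UNC 1 to 3 against 169, 171 and 165 CPM in DMSO 1 to 3. These groups did not overlap either. UNC rose by 0.19 ± 0.051 on the log2 scale in the paired fit (adjusted p = 0.0108), and the same difference had an adjusted p of 0.273 by group alone. MCM6, a subunit of that helicase, had 158, 158 and 148 CPM in UNC 1 to 3, against 139, 143 and 134 CPM in DMSO 1 to 3. The lowest UNC library stood above the highest DMSO library, and the log2 fold change was 0.15 ± 0.052 (paired fit, adjusted p = 0.0445).

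CDK1, the kinase that drives mitosis, had 91.7, 112 and 96.1 CPM in UNC 1 to 3 and 82.1, 99.9 and 82.9 CPM in DMSO 1 to 3. The groups overlapped, since number 2 was highest in both, but UNC was higher within each number. Its log2 fold change was 0.18 ± 0.052 (paired fit, adjusted p = 0.0183). BUB1, a checkpoint kinase at kinetochores, had 169, 192 and 194 CPM in UNC 1 to 3 and 153, 169 and 171 CPM in DMSO 1 to 3. Here too the groups overlapped and each pair rose, by 0.17 ± 0.049 on the log2 scale (paired fit, adjusted p = 0.0153). Of the 22 alternatives to the paired fit, TTK kept its call in 20, BUB1, CDK1 and CDT1 in 15 each, and MCM6 in 11. None of the 5 was called without UNC 2, nor without all libraries of number 2. A single call (TTK) was left without DMSO 3 or without number 3, 2 (CDT1 and TTK) without UNC 1, and 3 (MCM6, CDK1 and TTK) without DMSO 2. Without UNC 3 the calls were CDK1, BUB1 and TTK, higher in UNC, and E2F1, lower in UNC.

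**Figure D2:**
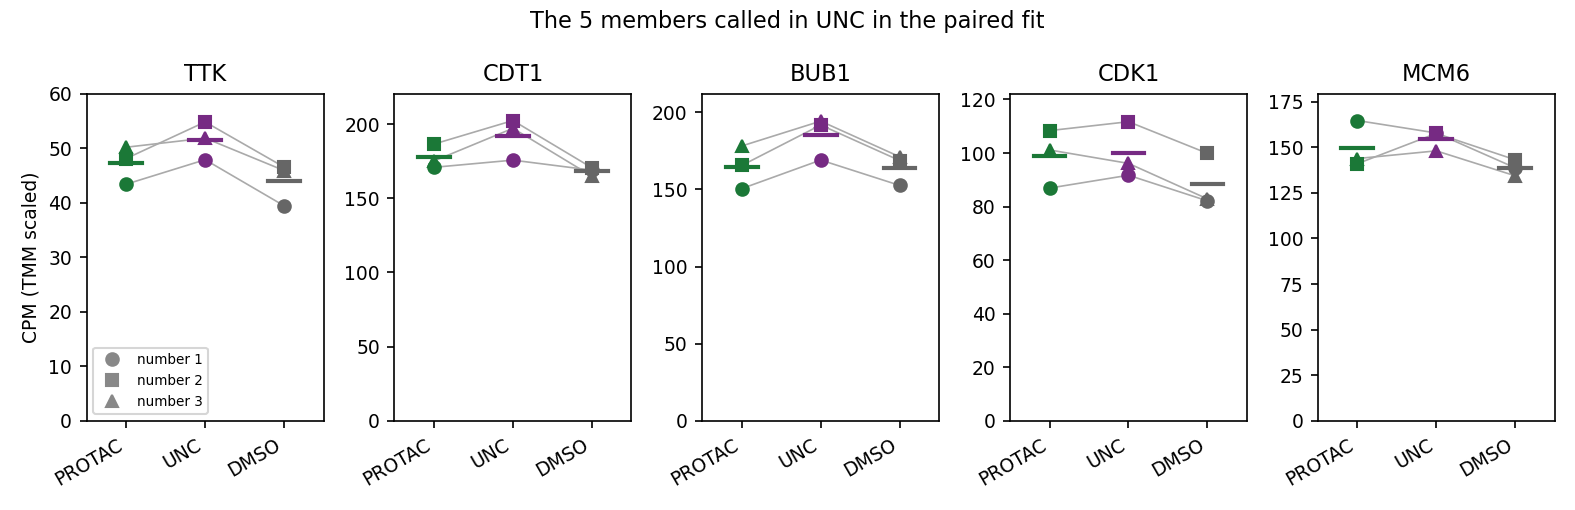
CPM in each library is plotted for the 5 members called in UNC in the paired fit, on axes that start at 0. Bars are group means, and grey lines join libraries of the same replicate number. In each panel the UNC libraries lie above the DMSO libraries of the same number, and the groups do not overlap for TTK, CDT1 and MCM6.

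By role, the paired fit called 2 of 10 genes of origin licensing and the helicase, 1 of 7 mitotic cyclins and kinases, and 2 of 4 genes of the spindle checkpoint and the anaphase-promoting complex. It called 0 of 5 genes of DNA synthesis and nucleotide supply, 0 of 3 G1/S regulators and 0 of 7 chromosome and spindle proteins. These lists are short, and the same fit called 13.5% of all genes and 19.3% of genes within the members' range of expression. The other 5 subunits of the MCM2-7 helicase lay between -0.08 and 0.05 on the log2 scale for UNC against DMSO. MCM7 was lower in every UNC library (233, 235 and 242 CPM) than in any DMSO library (255, 250 and 245 CPM), with a log2 fold change of -0.08 ± 0.050 and an adjusted p of 0.325 in the paired fit. So the subunits that do not overlap between these groups, MCM6 and MCM7, lay in opposite directions. In all, 4 members had no overlap between UNC and DMSO (MCM6, MCM7, CDT1 and TTK), and 17.4% of all genes tested had none.

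Among genes of nucleotide supply, TYMS, which makes thymidylate, had 99.3, 109 and 107 CPM in UNC 1 to 3 against 93.1, 103 and 97.5 CPM in DMSO 1 to 3. UNC was higher within each number, and the log2 fold change of 0.10 ± 0.051 missed the threshold (paired fit, adjusted p = 0.219). The G1/S regulator with the largest difference was CCNE2, at 3.23, 2.27 and 2.72 CPM in UNC 1 to 3 and 3.50, 2.72 and 2.76 CPM in DMSO 1 to 3. Its 95% interval in the paired fit, from -0.43 to 0.15, was the widest of all members. KIF11, the motor that separates spindle poles, had 72.9, 61.7 and 73.7 CPM in UNC 1 to 3 and 63.3, 61.6 and 66.3 CPM in DMSO 1 to 3. Number 2 was lowest in both groups, and the log2 fold change was 0.12 ± 0.054 (paired fit, adjusted p = 0.141). KIF11 had the largest change among chromosome and spindle proteins by group alone, while KIF20A, a kinesin of cytokinesis, had the larger one in the paired fit (0.13, adjusted p = 0.0889). Without CCNE2, the 95% intervals of the 35 members for UNC against DMSO in the paired fit lay within -0.23 (E2F1) and 0.34 (TTK), which are 0.854-fold and 1.27-fold. By group alone the intervals were wider, from -0.29 (E2F1) to 0.42 (TTK). The median log2 fold change by group alone was 0.036 over the 36 members, of which 25 were positive, and -0.0079 over all genes, of which 48.5% were positive.

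**Figure D3:**
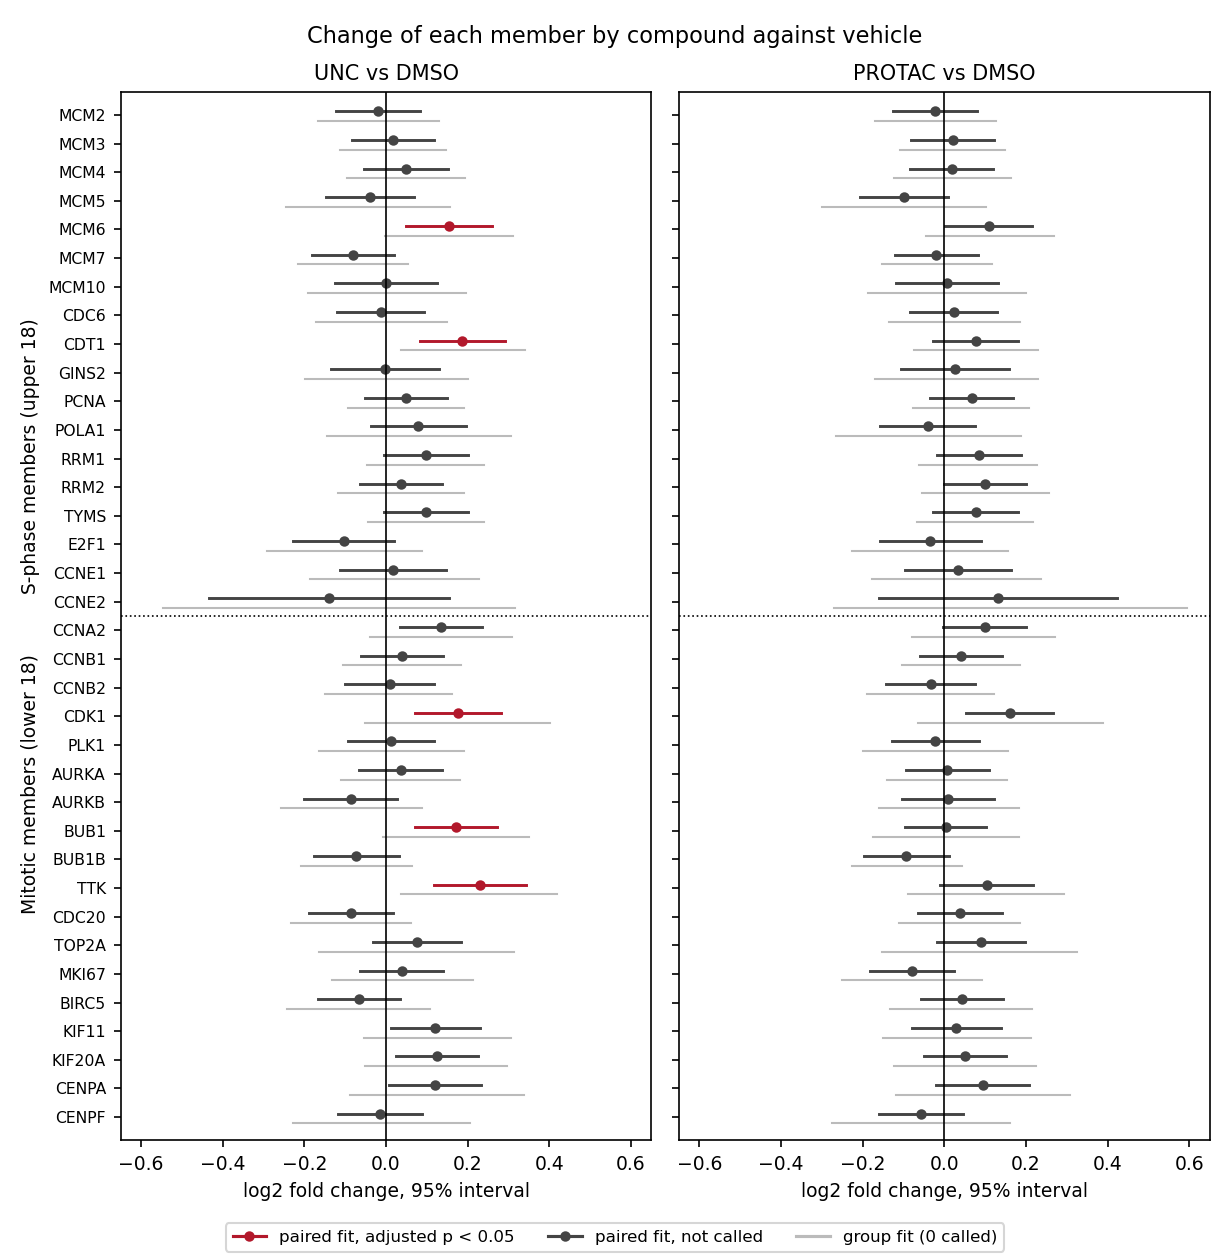
Log2 fold changes of each member against DMSO are shown with 95% intervals, in the paired fit (points) and by group alone (grey lines). The 5 red members of the UNC panel are TTK, CDT1, CDK1, BUB1 and MCM6, and no member is red in the PROTAC panel.

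PROTAC was next set against DMSO. No member was called by group alone, where 0% of all genes were called and 0 members had an unadjusted p under 0.05. The paired fit also called no member, with 3.02% of all genes called and 2 members, CDK1 and MCM6, at an unadjusted p under 0.05. CDK1 had 86.9, 108 and 101 CPM in PROTAC 1 to 3, against the DMSO values above. It was higher within each number, with a log2 fold change of 0.16 ± 0.052 and an adjusted p of 0.0857 in the paired fit, and it was called (the only member) when the libraries of number 1 were left out. Groups did not overlap for CDT1 and RRM1, both higher in PROTAC, or for BUB1B, lower in PROTAC, against 11.5% of all genes. CDT1 had 170.8, 186 and 175 CPM in PROTAC 1 to 3, and the lowest of these stood just above the highest DMSO library, at 170.5 CPM. RRM1, the large subunit of ribonucleotide reductase, had 103, 103 and 110 CPM in PROTAC 1 to 3 and 92.9, 102 and 102 CPM in DMSO 1 to 3. BUB1B, the checkpoint protein BubR1, had 82.1, 78.5 and 81.9 CPM in PROTAC 1 to 3 and 87.1, 87.2 and 84.1 CPM in DMSO 1 to 3. The differences of CDT1, RRM1 and BUB1B were 0.08, 0.08 and -0.09 on the log2 scale, and none passed the test. Leaving CCNE2 aside, the 95% intervals in the paired fit ran from -0.21 (MCM5) to 0.27 (CDK1), which are 0.866-fold and 1.20-fold. By group alone the intervals were wider, from -0.30 (MCM5) to 0.39 (CDK1). The median log2 fold change by group alone was 0.029, with 26 of 36 members positive. Over all genes it was -0.0055, with 48.5% positive.

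PROTAC and UNC share the DMSO libraries in the comparisons above, so the compounds were also compared with each other, at their different doses of 2.5 µM and 1 µM. No member was called by group alone (0.00827% of all genes) or in the paired fit (2.9% of all genes), with 0 and 7 members at an unadjusted p under 0.05. BUB1 came closest: it had 150.4, 165 and 178 CPM in PROTAC 1 to 3 against 169, 192 and 194 CPM in UNC 1 to 3. PROTAC was lower within each number, by -0.17 ± 0.049 on the log2 scale (paired fit, adjusted p = 0.0517). BUB1 was called lower in PROTAC with RLE or upper-quartile scaling, DESeq2, limma-voom, either other filter, or DMSO 1 left out. TTK had 43.4, 48.1 and 50.2 CPM in PROTAC 1 to 3, MCM6 165, 141 and 144 CPM. The PROTAC means of 47.3 CPM for TTK and 150 CPM for MCM6 lay between those of UNC and DMSO, and their differences from UNC, -0.13 and -0.04 on the log2 scale, did not pass the test. CDC20 was the only member with no overlap (9.08% of all genes had none), with 143, 144 and 140 CPM in PROTAC 1 to 3 and 122, 138 and 132 CPM in UNC 1 to 3. Its log2 fold change was 0.13 ± 0.051 (paired fit, adjusted p = 0.234). Excluding CCNE2, the paired 95% intervals for PROTAC against UNC ran from -0.27 (BUB1) to 0.23 (CDC20). By group alone the intervals were wider, from -0.35 (BUB1) to 0.28 (BIRC5).

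For most members the differences between replicate numbers were wider than those between groups. In the paired fit, a quasi-likelihood F test of the replicate number called 15 of 36 members (41.7%), against 31.5% of all genes and 43.5% of genes within the members' range of expression. The calls were uneven: 3 of 18 S-phase members (16.7%) and 12 of 18 mitotic members (66.7%). The range between number means exceeded the range between group means in 29 of 36 members (80.6%), against 63.5% of all genes. The S-phase calls were MCM5, POLA1 and RRM2, all highest in number 1. Of the 12 mitotic calls, 9 were lowest in number 1 (CCNA2, CDK1, PLK1, BUB1, TTK, TOP2A, BIRC5, KIF20A and CENPA), while MKI67 and CENPF were highest in number 1 and KIF11 lowest in number 2. Among all genes called by number, 40.3% were lowest in number 1 and 44.4% highest there. Without UNC 1 the test called 8 members, 2 S-phase and 6 mitotic, with 17.1% of all genes called.

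TOP2A showed one of the widest ranges, with 648, 787 and 723 CPM in PROTAC 1 to 3, 669, 815 and 657 CPM in UNC 1 to 3, and 630, 776 and 627 CPM in DMSO 1 to 3. Number 2 was highest in every group, and the numbers differed with an adjusted p of 9.27e-05. The same held for CDK1, whose number means of 86.9, 107 and 93.4 CPM for numbers 1 to 3 differed with an adjusted p of 0.000109. CENPA, the histone H3 variant of centromeres, had 60.0, 72.1 and 63.8 CPM in PROTAC 1 to 3, 56.8, 72.4 and 71.0 CPM in UNC 1 to 3, and 57.8, 63.6 and 62.0 CPM in DMSO 1 to 3. Number 1 was lowest in each group (adjusted p = 0.00193). CENPF, a large kinetochore protein, moved the other way, with 353, 300 and 318 CPM in PROTAC 1 to 3, 386, 305 and 310 CPM in UNC 1 to 3, and 367, 315 and 327 CPM in DMSO 1 to 3. Number 1 was highest in every group (adjusted p = 0.000174).

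Of the S-phase calls, POLA1, the catalytic subunit of the primase polymerase, had 50.3, 41.4 and 47.7 CPM in PROTAC 1 to 3, 57.1, 47.6 and 46.7 CPM in UNC 1 to 3, and 52.6, 43.1 and 47.5 CPM in DMSO 1 to 3. Its level in number 1 exceeded those in numbers 2 and 3 in every group (adjusted p = 0.00082). MCM5 had 118, 101 and 94.3 CPM in PROTAC 1 to 3, 112, 106 and 108 CPM in UNC 1 to 3, and 125, 107 and 104 CPM in DMSO 1 to 3, again with number 1 highest in every group (adjusted p = 0.00273). RRM2, the small subunit of ribonucleotide reductase, had 186, 170 and 165 CPM in PROTAC 1 to 3, 173, 167 and 159 CPM in UNC 1 to 3, and 169, 165 and 152 CPM in DMSO 1 to 3. Its number means stood in the same order in each group, and the test was near the threshold (adjusted p = 0.0487).

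**Figure D4:**
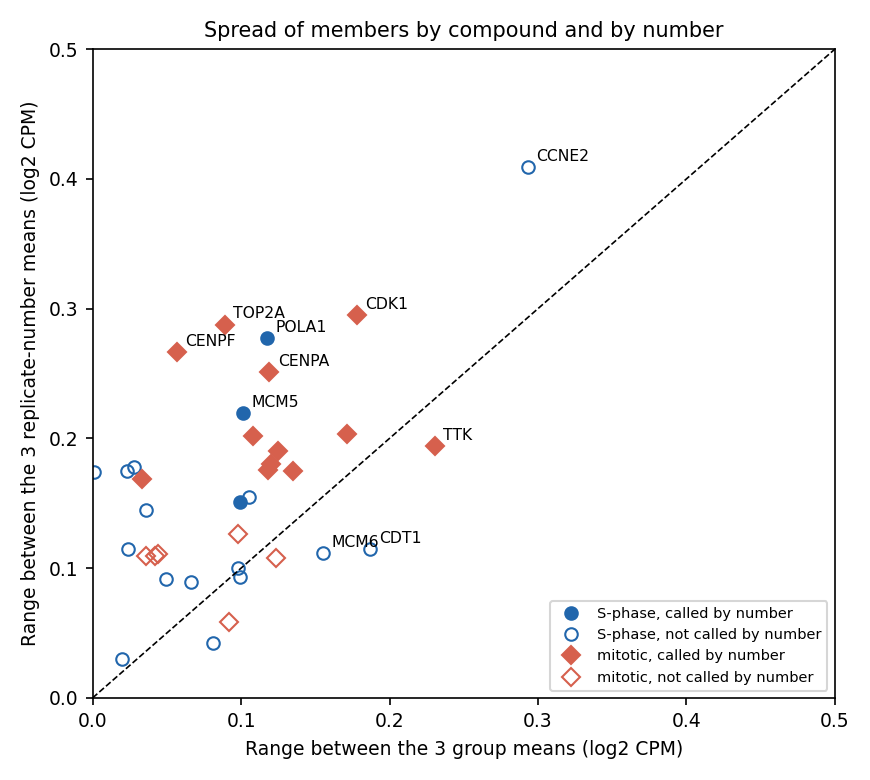
For each member, the range between the means of the 3 replicate numbers is plotted against the range between the means of the 3 groups, both in log2 CPM, with filled symbols for members called by number. Of the 36 points, 29 lie above the dashed line of equality, and TTK, CDT1 and MCM6 are among those below it.

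The balance of S-phase to mitotic transcripts separated the replicate numbers, while the ranges of the groups overlapped. It was taken as the mean log2 CPM of the 18 S-phase members minus that of the 18 mitotic members, a difference within a library that does not depend on the scaling between libraries. It was -0.53, -0.78 and -0.66 in PROTAC 1 to 3, -0.61, -0.76 and -0.70 in UNC 1 to 3, and -0.58, -0.74 and -0.66 in DMSO 1 to 3. In each group number 1 was highest and number 2 lowest, and the 3 libraries of one number did not overlap with those of another. The mean was -0.57 ± 0.042 for number 1, -0.76 ± 0.018 for number 2 and -0.67 ± 0.025 for number 3 (SD, n = 3 each). Number 1 minus number 2 came to 0.19, and to 0.17 to 0.21 with single libraries left out. By group the mean was -0.66 ± 0.125 in PROTAC, -0.69 ± 0.074 in UNC and -0.66 ± 0.083 in DMSO, SDs that include the differences between numbers. UNC was below DMSO in all 3 pairs, with differences of -0.035, -0.016 and -0.042, while PROTAC minus DMSO was 0.048, -0.036 and 0.0017. The mean difference of UNC from DMSO was -0.031, and it turned to 0.038 with medians over members in place of means, to 0.0035 without UNC 2 and to 0.0099 without DMSO 1. The mean log2 CPM of the mitotic members was higher in UNC than in DMSO in all 3 pairs, by 0.050, 0.029 and 0.082, and that of the S-phase members by 0.014, 0.012 and 0.040. No p is given for these scores, since the lists were chosen with earlier results known.

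**Figure D5:**
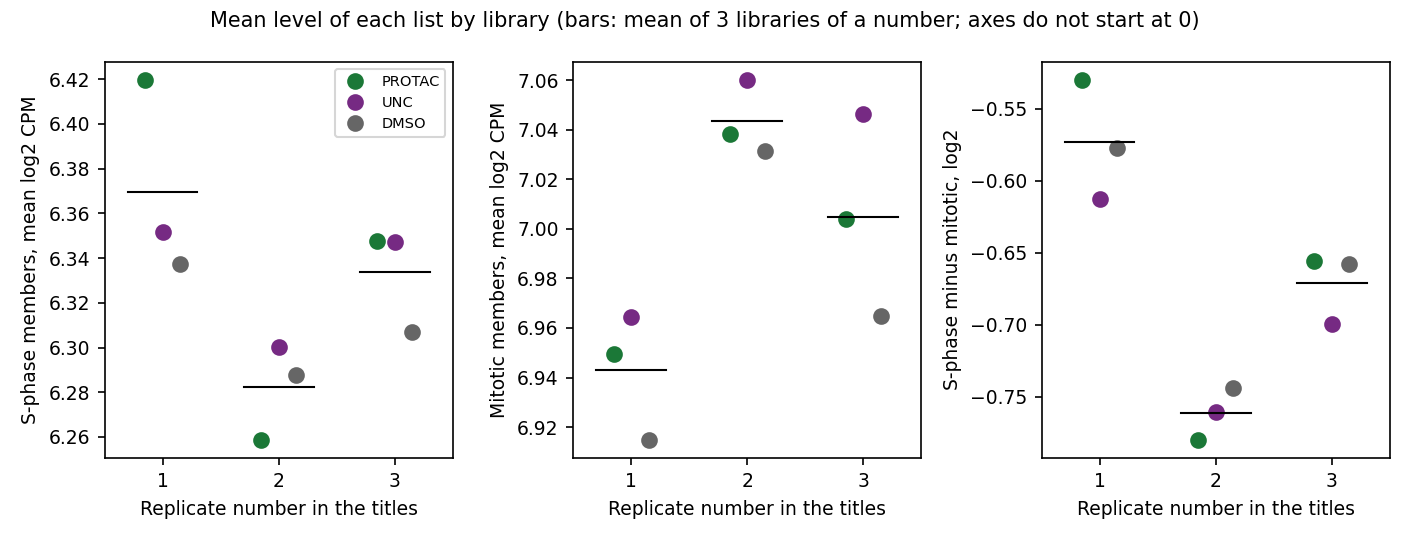
Mean log2 CPM of the S-phase members, of the mitotic members and their difference are shown for each library by replicate number, with black bars for the mean of the 3 libraries of a number; the axes do not start at 0. In the right panel the numbers do not overlap, with means of -0.57, -0.76 and -0.67, while the colours of the groups mix.

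Which members the number test called, unlike the balance, changed with the scaling. With library totals alone as scaling, the number test called 12 S-phase and 7 mitotic members, against 3 and 12 with TMM, and the median deviation of all genes in number 1 stood at 0.048 on the log2 scale in place of 0.013. Under TMM, RLE, upper-quartile and library-size scaling alike, 13 of 18 mitotic members were lowest in number 1, and 11 or 12 of 18 S-phase members were highest there. The TMM factors themselves ran with the number: 1.01 to 1.04 in number 1, 0.960 to 0.994 in number 2 and 0.987 to 1.01 in number 3. The ranges of depth and of the mitochondrial share overlapped between the numbers. Number 1 held 63678362 to 101081643 counts and 3.21% to 5.12%, and number 2 held 40880924 to 84716561 counts and 3.33% to 4.14%. Number 3 held 31651742 to 79745392 counts and 3.42% to 4.67%. Across the 36 members, the Spearman correlation between exon length and the deviation in number 1 was 0.41, against 0.067 across 20539 genes. Within the lists that correlation was 0.47 for S-phase and 0.27 for mitotic members. For the deviations in numbers 2 and 3 it was -0.37 and -0.27 across the members, against -0.11 and 0.027 across those 20539 genes. These correlations are across genes, which are not independent replicates. CENPF and MKI67, which were highest in number 1, are the longest members at 11690 and 12807 exon bases. Of the next longest, MCM5, MCM4 and POLA1 (7338, 6973 and 6336 bases) were also highest in number 1. TOP2A and BUB1, at 6437 and 6032 bases, were lowest there. The part of scaling factors, depth, mitochondrial share and length in the difference between numbers was not tested.

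Variation over the libraries was then compared with that of other genes. The members' median SD of log2 CPM over the 9 libraries was 0.097, against 0.13 for genes within their range of expression and 0.21 for all genes tested. Median shares of that variance were 22.6% for group, 61.3% for replicate number and 19.4% for the rest over the 36 members, against 23.0%, 48.0% and 18.9% over genes within their range of expression and 22.5%, 40.9% and 25.0% over all genes. The share of number was 51.3% for S-phase and 64.2% for mitotic members. The median absolute log2 fold change of UNC against DMSO by group alone was 0.074 over the members and 0.10 over genes within their range of expression. For PROTAC against DMSO the corresponding values were 0.041 and 0.077.

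Other genes of the same pathways were tested in the same fits, and none was called by group alone, so all calls here come from the paired fit. For UNC against DMSO, that fit called 7.05% of all genes higher and 6.46% lower. Within the members' range of expression it called 19.3% of genes in either direction. For PROTAC against DMSO it called 3.02% of all genes. Of 42 further replication genes, 1 was higher in UNC than in DMSO (ORC2, 0.15 on the log2 scale) and 2 were lower (CHAF1A, -0.24, and ORC6, -0.18), and none was called in PROTAC. CHAF1A, a subunit of the chromatin assembly factor CAF-1, had 62.5, 45.0 and 59.0 CPM in UNC 1 to 3 and 70.6, 54.6 and 71.0 CPM in DMSO 1 to 3 (adjusted p = 0.00166), and the groups overlapped while UNC was lower within each number. Of 50 further mitotic genes, 5 were higher in UNC, among them the condensin subunit SMC4 (0.22), NUF2 (0.19) and DLGAP5 (0.18), and 1 was lower. That was CDC25B, the phosphatase that activates CDK1, with 69.4, 84.7 and 85.3 CPM in UNC 1 to 3 and 95.6, 104 and 102 CPM in DMSO 1 to 3. UNC lay below DMSO in every library, by -0.34 ± 0.056 (adjusted p = 3.26e-05). CDC25B was also higher in PROTAC than in UNC, by 0.25 (adjusted p = 0.00534), and did not pass the test in PROTAC against DMSO (-0.09, adjusted p = 0.452).

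Regulators of both lists were tested as well. Of 21 genes of the E2F, RB and DREAM families and their kinases, 6 were higher in UNC and 0 lower, beside 7.05% of all genes higher and 6.46% lower. In PROTAC 2 were higher, beside 3.02% of all genes called. Within the members' range of expression, 19.3% of genes were called in UNC and 4.85% in PROTAC, in either direction. CDK6, which phosphorylates RB in G1, had 32.1, 25.7 and 23.2 CPM in PROTAC 1 to 3, 33.2, 26.3 and 23.1 CPM in UNC 1 to 3, and 22.3, 19.7 and 14.9 CPM in DMSO 1 to 3. It was higher with both compounds within each number, by 0.51 ± 0.068 in PROTAC (adjusted p = 1.29e-05) and by 0.54 ± 0.067 in UNC (adjusted p = 3.48e-07). E2F5 (0.44), E2F8 (0.38) and LIN54 (0.26) were higher in UNC, and E2F7, a repressor of E2F targets, was higher by 0.18 with each compound. Of 7 CDK inhibitors, 6 were tested, and CDKN2C did not pass the filter. CDKN1C, or p57, was higher by 0.41 in PROTAC and by 0.38 in UNC, with 26.7, 39.9 and 28.7 CPM in PROTAC 1 to 3, 24.4, 41.8 and 28.2 CPM in UNC 1 to 3, and 21.9, 29.5 and 19.8 CPM in DMSO 1 to 3. Number 2 was highest in all groups. CDKN1B, or p27, was higher in UNC (0.24), and CDKN1A, or p21, in PROTAC (0.27). The replicate number called 20 of the 42 replication genes, 22 of the 50 mitotic genes, 7 of the 21 regulators and 3 of the 6 inhibitors, beside 31.5% of all genes and 43.5% of genes within the members' range of expression.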

How the data were processed

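RNA from 9 libraries was measured as read counts per gene. Per the submitters' processing notes, Trim Galore 0.6.10 was the trimmer and HISAT2 2.2.1 was the aligner, with GRCh38 as the build. Of the counting, neither tool nor strand setting is given in the sources used here. Per the labels' protocols, ribosomal RNA was depleted, while the molecule field reads polyA RNA. The authors deposited whole-number counts, not normalised, for 56312 entries, of which 5 without an identifier (0.0065% to 0.010% of counts) were left out.

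These counts went into edgeR 4.0.16 under R 4.3.3, with its default filter (24182 genes left), TMM scaling, robust quasi-likelihood fits of group over the 9 libraries, and Benjamini-Hochberg adjustment over all genes tested. CPM values are TMM-scaled, log2 CPM has a prior count of 2, and levels per kb use GENCODE 29 exon unions. The paired fit adds the replicate number as a block. Deviations from the group means correlated between libraries that share a number (r of 0.106 to 0.472, median 0.264, against -0.324 to 0.0748 for different numbers), so every pair passed 0.1 and the numbers were taken to pair the libraries. Biological variation (edgeR's common BCV) came to 13.2% without and 6.09% with the block. The labels call the replicates biological. A chi-square test found no pair of replicates alike within counting noise. Every member had at least 89 counts in each library.

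The 36 members, the lists and the rule for named genes were chosen with earlier results of these data known. Values in every library are given for members called in a comparison, for the called members with the 4 widest ranges between numbers in each class, and for the largest change in UNC of each role (by group alone); CDC20, BUB1B, MCM7 and RRM1 were named after their values were seen. Tried as alternatives were DESeq2 1.42.0, limma-voom (limma 3.58.1), 3 other scalings, 2 other filters, thinned counts, fits of only the 6 libraries compared, a stricter false discovery rate of 0.01, and leaving out each library or number. Deviations by number under each scaling were added after seeing the data. The code was tested on simulated data.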

Additional observations from a re-analysis of the deposited data

How the results depend on the processing

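By group alone, 0 of 36 members were called in all 3 comparisons, and this held under every alternative run without the block; 0 to 2 members had an unadjusted p under 0.05, and DESeq2 also called 0. The replicate block made 5 calls for UNC against DMSO. Of that paired count of 5, library-size scaling left 3 and a false discovery rate of 0.01 left 1; it was 0 to 6 with single libraries left out and 0 to 5 with a whole number left out. Calls gained under alternatives were CCNA2 (RLE, DESeq2, without PROTAC 1, or the 6 libraries compared), KIF20A (DESeq2), CENPA (without number 1) and E2F1, lower in UNC (without UNC 3). For PROTAC against DMSO the paired count of 0 became 1 (CDK1) without number 1. For PROTAC against UNC the paired count of 0 became 1 (BUB1, lower in PROTAC) with RLE or upper-quartile scaling, DESeq2, limma-voom, no filter, a filter of at least 1 CPM in 3 libraries, or DMSO 1 left out. The count by number was 15, 8 to 17 with single libraries left out (8 without UNC 1). The block changed no other count of members. Over all genes, UNC against DMSO by group alone gave 174 calls, against 803 with DESeq2 and 832 with no filter; PROTAC against DMSO gave 0, 21 and 72 calls, and PROTAC against UNC gave 2, 128 and 244, in the same order of settings. The balance of S-phase to mitotic members moved by less than its spread between libraries, though its small UNC difference changed sign as given above. Of 1848 values of the 14 members given in every library by rule, 1805 kept their side of the threshold, 34 lost a call and 9 gained one. Only a called value could lose its call or turn round, and an uncalled value that changed sign counted as kept. All losses were therefore among the 5 paired calls, with 22 alternatives each. BUB1, CDK1 and CDT1 lost the call in 7 each, MCM6 in 11 and TTK in 2, and none of these turned round. Why these calls moved was not tested. Where leaving out a library gave an arm 2 samples, the fit pooled its spread with the other groups. With 3 libraries a group, a member that was not called may still differ by any amount within its 95% interval.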
